A study of Mus musculus with 4 samples.

Results

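The 40 genes described here encode nuclear subunits of respiratory complexes II, III and IV and of the ATP synthase, complex V, together with the electron carrier cytochrome c. They were chosen by name, and all 40 were found among the 24940 genes of the deposited table, with 4 for complex II, 9 for complex III, 11 for complex IV, 15 for complex V and 1 for cytochrome c. RNA was sequenced from isolated pancreatic islets, small clusters of endocrine cells, of male mice aged 3 to 4 months. The 2 control libraries (replicates 1 and 2) came from non-transgenic mice and the 2 knockdown libraries (replicates 3 and 4) from Tafazzin-knockdown mice, all on a low-fat chow diet. Each library pooled about 300 islets from 2 to 3 mice, so that the spread behind the p-values is between pools, not single mice. The tests also borrow that spread from other genes, since each group has 2 libraries. The knockdown construct is not given in the sources used here, and since the controls carry no transgene, an effect of the transgene and an effect of Tafazzin depletion cannot be told apart.

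Complex II oxidises succinate and feeds electrons to ubiquinone, complex III passes them on to cytochrome c, and complex IV hands them to oxygen. Complexes III and IV move protons out of the mitochondrial matrix, and ATP synthase lets them back through its membrane ring to make ATP, which couples glucose to insulin release in beta cells. All of them sit in or on the inner mitochondrial membrane and bind cardiolipin, the lipid that Tafazzin remodels. Several catalytic subunits of complexes III, IV and V are made from the mitochondrial genome, which was not analysed here.

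The promoters of these genes were read for 3 motifs, which the choice of genes by name did not use. The motifs were picked by hand, with earlier results of these data known, so that their shares are a description only. RefSeq windows of 300 bases (250 before the start site and 50 after) on GRCm38.p6 were matched for 32 of the 40 genes, all but Sdhc, Uqcrc2, Uqcrb, Uqcrq, Cyc1, Cox4i1, Cox6c and Atp5a1. The letters GCGCATGCG, bound by NRF1, a transcription factor of nuclear genes for mitochondria, stood on either strand of 7 of the 32 (21.9%), against 3.95% of 10722 tested genes with a window and 1.75% of all 32851 windows. The 7 genes were Uqcrc1, Uqcr11, Cycs, Cox6a1, Atp5g2, Atp5k and Atp5l. The ETS motif CCGGAAGT, bound by GABPA, stood in 4 of 32 (12.5%, against 8.72% of tested genes and 3.89% of all windows), namely Uqcrh, Uqcr11, Cox8a and Atp5h. The YY1 motif AAGATGGC stood in 3 of 32 (9.38%, against 5.10% and 2.75%), namely Atp5f1, Atp5j and Atp5j2. In all, 13 of 32 genes (40.6%) held at least 1 of these letter strings, against 16.6% of tested genes. A match describes letters in the window and is no measured binding site.

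The windows of 4 genes, from complex III to complex V along the path of electrons and protons, show where the NRF1 letters lie. They are written 5′ to 3′ on the strand of the gene, with the matches in capitals. In Uqcrc1, Cox6a1 and Atp5g2 the capitals read the same on both strands, so that a match on each strand overlaps the other.
Uqcrc1 (chr9:108936398-108936697, plus strand): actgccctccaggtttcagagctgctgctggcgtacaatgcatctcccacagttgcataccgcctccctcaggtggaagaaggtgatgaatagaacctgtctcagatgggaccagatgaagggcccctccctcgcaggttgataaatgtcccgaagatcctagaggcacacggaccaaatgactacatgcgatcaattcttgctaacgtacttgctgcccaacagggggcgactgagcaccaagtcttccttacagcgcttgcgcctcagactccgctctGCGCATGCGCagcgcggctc
Cycs (chr6:50566520-50566819, minus strand): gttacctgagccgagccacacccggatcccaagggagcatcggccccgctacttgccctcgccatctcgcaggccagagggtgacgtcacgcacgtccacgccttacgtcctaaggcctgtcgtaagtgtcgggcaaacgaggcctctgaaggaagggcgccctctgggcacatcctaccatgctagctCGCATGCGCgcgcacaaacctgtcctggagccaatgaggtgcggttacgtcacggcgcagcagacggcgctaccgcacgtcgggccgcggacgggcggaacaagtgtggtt
Cox6a1 (chr5:115348909-115349208, minus strand): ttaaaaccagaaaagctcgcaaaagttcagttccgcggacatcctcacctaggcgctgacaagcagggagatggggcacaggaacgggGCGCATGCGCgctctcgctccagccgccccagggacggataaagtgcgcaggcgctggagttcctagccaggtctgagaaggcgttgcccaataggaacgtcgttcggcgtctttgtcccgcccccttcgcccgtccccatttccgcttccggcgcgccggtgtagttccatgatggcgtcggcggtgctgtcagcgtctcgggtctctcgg
Atp5g2 (chr15:102670998-102671297, minus strand): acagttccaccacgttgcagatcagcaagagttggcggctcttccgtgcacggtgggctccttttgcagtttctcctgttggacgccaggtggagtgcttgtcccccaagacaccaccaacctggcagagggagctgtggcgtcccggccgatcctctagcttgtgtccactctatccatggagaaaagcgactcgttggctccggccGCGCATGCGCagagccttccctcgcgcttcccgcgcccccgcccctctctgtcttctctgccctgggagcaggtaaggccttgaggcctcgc
The letters lie before the start site in Cycs, Cox6a1 and Atp5g2 and after it in Uqcrc1. The log2 fold changes (knockdown minus control) of the 7 genes with the NRF1 letters had a median of 0.05 and ran from -0.14 for Cox6a1 to 0.43 for Atp5g2. Those of the 19 genes with none of the 3 motifs had a median of 0.03 and ran from -0.31 to 0.70, so that the ranges overlapped. Uqcr11 is counted under both NRF1 and ETS. The 4 genes with ETS letters had a median of 0.12 and ran from 0.03 to 0.16. The 3 genes with YY1 letters had a median of -0.08 and ran from -0.09 to 0.10. The values of Cycs (the median of the 7), Atp5g2, Atp5l and Cox7c (the 0.70) rest on few reads, given below.

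Levels are given in scaled units. These are the deposited reads per 10000000 reads of the library total, divided by a factor that sets the typical gene equal between libraries (1.04 and 0.847 for control replicates 1 and 2, 1.08 and 1.06 for knockdown replicates 3 and 4). On the deposited scale control replicate 2 was the lowest library for 30 of the 40 genes. After scaling, the lowest library was control replicate 1 for 12 genes, control replicate 2 for 10, knockdown replicate 3 for 11 and knockdown replicate 4 for 7. Library totals were 68823160 to 81073502 reads, of which a ribosomal RNA precursor took 41.6% to 42.6%. Outside 13 rows of very high value, 4320910 to 4962798 reads were left per library. The insulin genes Ins1 and Ins2 stood at 24373 to 56310 scaled units over the 4 libraries, with glucagon at 5223 to 7269 and somatostatin at 738 to 897, so that the defining hormones of islets were present. Taz, the gene of Tafazzin, stood at 22.3 and 18.2 scaled units in the control libraries and 12.9 and 12.03 in the knockdown. The knockdown libraries were the lower ones, as labelled, at a log2 fold change of -0.65 ± 0.20 SE that was not called (adjusted p = 0.136 by limma). The smallest adjusted p for Taz in any setting was 0.122, by edgeR.

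None of the 40 subunit genes passed the test in either direction. By limma with Benjamini-Hochberg adjustment over 13531 genes, 0 were called higher and 0 lower, where 1.12% of all tested genes were called higher and 0.155% lower. The edgeR quasi-likelihood test (1.29% and 0.148% of all genes) and DESeq2 (0.606% and 0.0739%) also called 0 of them. At an unadjusted p under 0.05, limma held 1 of the 40 (10.3% of all genes), edgeR 2 (10.3%) and DESeq2 0 (5.39%). All 40 passed the filter on low values. Their limma adjusted p ran from 0.429 for Atp5o to 0.988, and the lowest in any setting, or with any library left out, was 0.205 (Sdha).

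The measured differences were also small. Across the 40 genes the median log2 fold change was 0.02, with a middle 50% from -0.09 to 0.10, beside a median of -0.0046 and a middle 50% from -0.16 to 0.18 over all tested genes. Of the 40, 24 lay above 0 and 16 below. The median absolute log2 fold change was 0.10, beside a median absolute difference of 0.14 between the 2 controls and 0.11 between the 2 knockdown libraries. Over all tested genes these values were 0.17, 0.21 and 0.20. A difference between group means varies less than 1 between single libraries, so that a smaller value there is no sign of equal groups. For the 36 genes with a mean of at least 10 scaled units, the 95% intervals of limma, unadjusted for the number of genes and for a fold of scaled units + 1, reached down to a fold of 0.634 (Cox7a2) and up to 1.64 (Atp5o) at most. Of all 40, 24 had an interval inside ±0.5 on the log2 scale and 38 inside ±1, the exceptions to the latter being Cox7c and Atp5g2. On the deposited scale the median was 0.20 beside 0.17 for all genes, and 33 of 40 (82.5%) lay above 0, beside 76.3% of all genes. There limma called 0 of the 40, where it called 2.49% of all genes higher and 0.0443% lower.

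**Figure D1:**
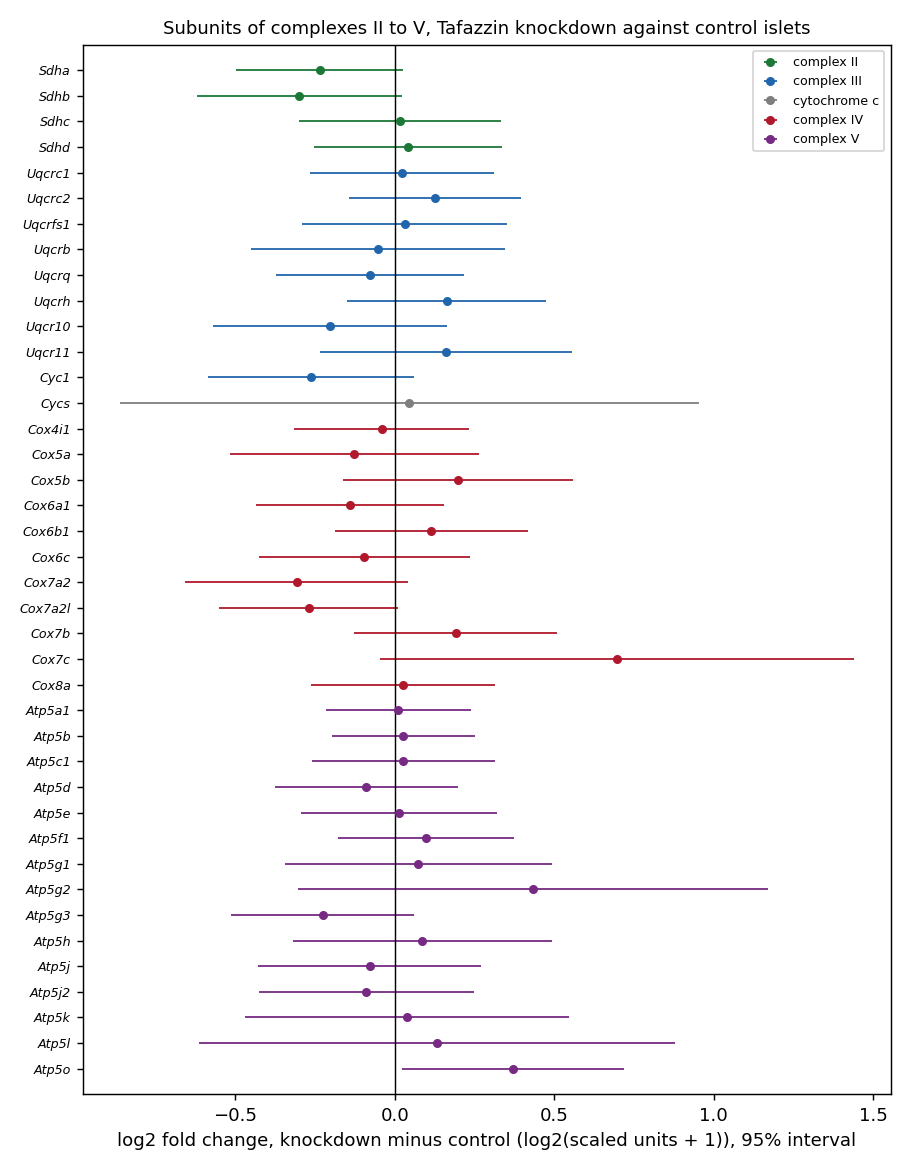
Log2 fold change (knockdown minus control, on log2(scaled units + 1)) of each of the 40 subunit genes, coloured by complex, with its 95% limma interval as a bar and a vertical line at 0. The 36 genes with a mean of at least 10 scaled units lie between -0.31 (Cox7a2) and 0.37 (Atp5o), and the longest bars are those of Cycs, Cox7c, Atp5g2 and Atp5l.

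Control and knockdown libraries did not overlap for 18 genes, 9 higher (22.5%) and 9 lower (22.5%) in the knockdown. Over all tested genes these shares were 20.4% and 20.0%, so that the subunits stood near the background. The higher ones were Sdhd, Uqcrc2, Cox5b, Cox7b, Cox7c, Atp5f1, Atp5g1, Atp5g2 and Atp5o. The lower ones were Sdha, Sdhb, Uqcr10, Cyc1, Cox6c, Cox7a2, Cox7a2l, Atp5d and Atp5g3. On the deposited scale all of these lower genes overlapped between the groups, and 15 of the 40 (37.5%) lay higher and 0 lower without overlap. The shares of all tested genes there were 34.9% higher and 4.49% lower, so that the split moved with the scale for all genes. The sign of the log2 fold change held for 24 of 40 genes with each library left out in turn.

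**Figure D2:**
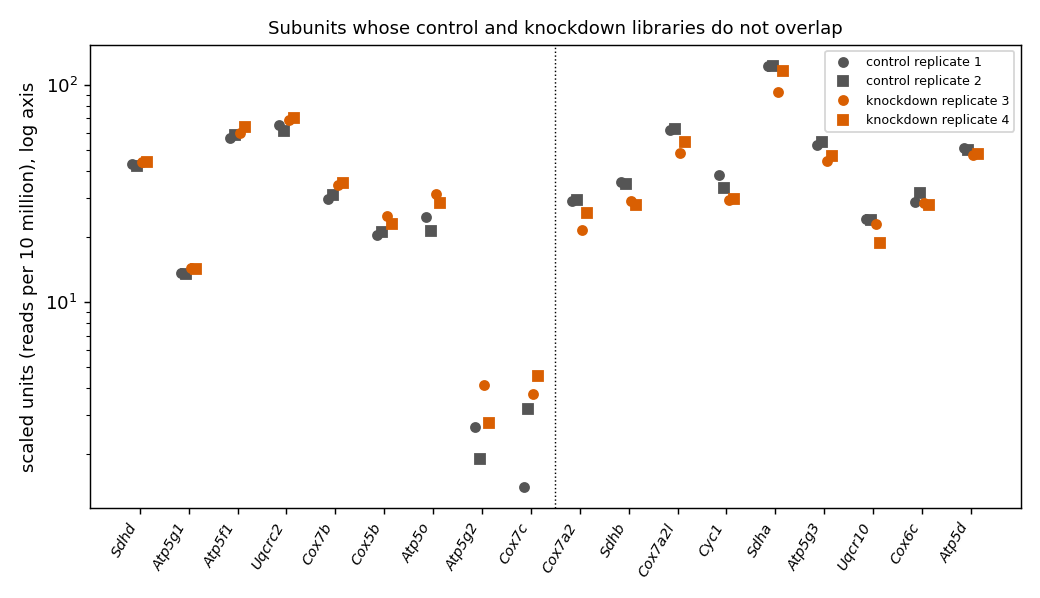
Scaled units (log axis) of the 18 subunit genes whose groups do not overlap, with controls in grey, knockdown libraries in orange and 1 point per library. Genes left of the dotted line are higher and genes right of it lower in the knockdown, where the lower ones overlap on the deposited scale.

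In complex II, succinate dehydrogenase, both catalytic subunits were lower in each knockdown library, without passing the test. Sdha, the flavoprotein that binds succinate, stood at 122 and 122 scaled units in the control libraries and 92.9 and 116 in the knockdown. Its log2 fold change was -0.24 ± 0.13 SE (adjusted p = 0.560 by limma), and knockdown replicate 3 lay farthest below. Without single libraries the value of Sdha ran from -0.39 to -0.07. Sdhb, the iron-sulphur subunit, stood at 35.7 and 34.9 (control) against 29.1 and 27.9 (knockdown) scaled units. Both knockdown libraries of Sdhb lay about equally low, at a ratio of 0.807 to the controls (log2 fold change -0.30 ± 0.16 SE, adjusted p = 0.534 by limma, 0.484 by edgeR). With Atp5o, Sdhb was 1 of the 2 genes with an unadjusted edgeR p under 0.05. The membrane anchors Sdhc and Sdhd, which bind haem and ubiquinone, had values nearer to 0. Sdhc stood at 45.4 and 50.9 (control) against 42.2 and 56.1 (knockdown) scaled units, so that the knockdown libraries lay on both sides of the controls. Sdhd stood at 43.4 and 42.5 (control) against 44.1 and 44.3 (knockdown) scaled units (log2 fold change 0.04 ± 0.14 SE). Summed over the 4 genes, complex II held 247 and 251 scaled units in the control libraries and 208 and 244 in the knockdown. The median of the 4 log2 fold changes was -0.11, and -0.23 without knockdown replicate 4. On the deposited scale Sdha and Sdhb overlapped between the groups.

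In complex III the core and catalytic subunits had log2 fold changes on both sides of 0. Uqcrc1, a core protein, stood at 50.4 and 52.5 scaled units in the control libraries and 55.8 and 48.97 in the knockdown, and the groups overlapped. Uqcrc2, the other core protein, stood at 65.2 and 61.6 (control) against 68.6 and 70.02 (knockdown) scaled units, higher in both knockdown libraries by a log2 fold change of 0.13 ± 0.13 SE (adjusted p = 0.815 by limma). Uqcrfs1, the Rieske iron-sulphur protein that takes electrons from ubiquinol, stood at 35.3 and 31.3 (control) against 33.1 and 34.9 (knockdown) scaled units. Cyc1, the haem protein that hands electrons to cytochrome c, stood at 38.4 and 33.5 (control) against 29.6 and 29.8 (knockdown) scaled units. It had the lowest log2 fold change of the complex (-0.26 ± 0.16 SE, adjusted p = 0.619 by limma), and both knockdown libraries were below both controls, though not on the deposited scale. Uqcrh, the hinge protein beside cytochrome c, had the highest by limma (0.16 ± 0.15 SE, adjusted p = 0.785 by limma), at 38.1 and 42.1 (control) against 49.6 and 40.7 (knockdown) scaled units, and its groups overlapped. Without single libraries its value ran from 0.02 to 0.30, and that of Cyc1 from -0.35 to -0.16. The small accessory subunit Uqcr11 lay close to it, at 15.8 and 17.9 (control) against 20.9 and 17.2 (knockdown) scaled units (0.16 ± 0.19 SE), and was the highest of the complex by edgeR (0.177, against 0.174 for Uqcrh) and DESeq2 (0.175 against 0.172). Uqcr10 stood at 24.1 and 23.9 (control) against 22.8 and 18.8 (knockdown) scaled units, lower in both knockdown libraries by unequal amounts. The small subunits Uqcrb and Uqcrq had log2 fold changes of -0.05 and -0.08. In sum complex III held 343 and 325 scaled units in the control libraries and 345 and 326 in the knockdown, with a median log2 fold change of 0.02 over its 9 genes.

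Cycs, the gene of somatic cytochrome c, stood at 0.699 and 2.47 scaled units in the control libraries and 1.58 and 1.44 in the knockdown. These values rest on 5, 17, 13 and 12 reads, and the controls differed from each other by more than any knockdown library did from either of them. On the log2(scaled units + 1) scale its difference was 0.05 ± 0.44 SE, with a 95% interval from -0.86 to 0.95. At so few reads the added unit shrinks both, so that this is no interval of the fold of the gene itself, and the ratio of the means was 0.951.

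In complex IV, cytochrome c oxidase, log2 fold changes ran from -0.31 to 0.70. Cox4i1, the largest of its nuclear subunits, stood at 70.3 and 68.4 scaled units in the control libraries and 62.9 and 72.1 in the knockdown. Cox5a stood at 21.3 and 18.2 (control) against 19.6 and 16.4 (knockdown) scaled units, and both genes overlapped between groups. Cox5b, which binds zinc, stood at 20.3 and 20.96 (control) against 24.98 and 22.7 (knockdown) scaled units, higher in both knockdown libraries (log2 fold change 0.20 ± 0.17 SE, adjusted p = 0.768 by limma). Cox7b, an X-linked subunit, also stood higher in both, at 29.7 and 31.2 (control) against 34.4 and 35.3 (knockdown) scaled units. Cox7a2 was the lowest of the complex, at 29.1 and 29.4 (control) against 21.3 and 25.7 (knockdown) scaled units (-0.31 ± 0.17 SE, adjusted p = 0.568 by limma). Cox7a2l, also called SCAF1, joins complex III to complex IV in respiratory supercomplexes. Its levels were 62.1 and 62.6 scaled units in the control libraries and 48.7 and 54.5 in the knockdown. The controls of Cox7a2l lay close together and both knockdown libraries below them, at a ratio of 0.828 (log2 fold change -0.27 ± 0.14 SE, adjusted p = 0.511 by limma). With each library left out in turn its log2 fold change ran from -0.35 to -0.19, and on the deposited scale its groups overlapped. Cox7c was the highest of the complex, at 1.40 and 3.20 (control) against 3.76 and 4.57 (knockdown) scaled units (0.70 ± 0.36 SE, adjusted p = 0.527 by limma), from 10, 22, 31 and 38 reads. Its 95% interval, which the added unit narrows at such low counts, ran from -0.05 to 1.44 on the log2(scaled units + 1) scale, and its value from 0.30 to 1.12 without single libraries. The value of Cox7a2 ran from -0.44 to -0.18 likewise. Cox6c stood at 28.8 and 31.7 (control) against 28.6 and 27.9 (knockdown) scaled units, lower in both knockdown libraries. The remaining subunits Cox6a1, Cox6b1 and Cox8a had log2 fold changes of -0.14, 0.11 and 0.03 and overlapped between groups. In sum the 11 genes held 424 and 423 scaled units in the control libraries and 400.0 and 419.8 in the knockdown, with a median log2 fold change of -0.04.

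The catalytic head of ATP synthase gave the narrowest intervals. Atp5a1, the alpha subunit, stood at 287 and 291 scaled units in the control libraries and 273 and 311 in the knockdown. Atp5b, the beta subunit that carries the catalytic sites, stood at 289 and 311 (control) against 298 and 314 (knockdown) scaled units. Both overlapped between groups, and the interval of the fold was 0.861 to 1.18 for Atp5a1 and 0.872 to 1.19 for Atp5b. Atp5c1, the rotating gamma subunit, stood at 54.9 and 67.8 (control) against 60.9 and 63.5 (knockdown) scaled units. Atp5d, the delta subunit of the central stalk, stood at 51.1 and 50.4 (control) against 47.3 and 48.0 (knockdown) scaled units, lower in both knockdown libraries by a small margin (log2 fold change -0.09 ± 0.14 SE). Atp5e, the epsilon subunit, stood at 40.03 and 36.7 (control) against 39.3 and 38.1 (knockdown) scaled units. The 5 genes of the head and central stalk had log2 fold changes between -0.09 and 0.03.

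Atp5o, the oligomycin sensitivity protein that ties the head to the peripheral stalk, had the lowest limma p of the 40 genes. It stood at 24.6 and 21.3 scaled units in the control libraries and 31.3 and 28.5 in the knockdown, a ratio of 1.30. Both knockdown libraries lay above both controls (log2 fold change 0.37 ± 0.17 SE, adjusted p = 0.429 by limma, 0.378 by edgeR). Without single libraries the value ran from 0.27 to 0.48. Of the 50-base words of the Atp5o mRNA, 35.5% also occur in 2 other annotated genes. The other peripheral stalk genes Atp5f1, Atp5h and Atp5j had log2 fold changes of 0.10, 0.09 and -0.08. Atp5f1, subunit b, stood at 57.1 and 58.7 (control) against 59.9 and 64.1 (knockdown) scaled units, higher in both knockdown libraries, and Atp5j at 33.6 and 41.2 (control) against 29.95 and 41.3 (knockdown) scaled units. Of the accessory subunits of the membrane part, Atp5j2 and Atp5k had log2 fold changes of -0.09 and 0.04. Atp5k stood at 17.6 and 9.02 (control) against 12.9 and 13.2 (knockdown) scaled units, so that the controls flanked the knockdown libraries. Atp5l stood at 1.96 and 4.95 (control) against 3.15 and 4.09 (knockdown) scaled units, from 14, 34, 26 and 34 reads, and its controls flanked them too.

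The proton-carrying c ring is made of 1 mature protein that 3 genes encode, with different import sequences. Atp5g3 stood at 52.9 and 54.6 scaled units in the control libraries and 44.5 and 47.2 in the knockdown. It had the lowest log2 fold change of the ATP synthase (-0.23 ± 0.14 SE, adjusted p = 0.632 by limma), with both knockdown libraries below both controls, though not on the deposited scale. Atp5g1 stood at 13.6 and 13.4 (control) against 14.3 and 14.2 (knockdown) scaled units (0.07 ± 0.20 SE). Atp5g2 had the highest log2 fold change of the complex, at 2.66 and 1.89 (control) against 4.12 and 2.77 (knockdown) scaled units (0.43 ± 0.36 SE, adjusted p = 0.747 by limma), from 19, 13, 34 and 23 reads, and its value ran from 0.21 to 0.65 without single libraries. Of the summed units of the 3 genes, not set per length, Atp5g3 held 76.5% and 78.1% in the control libraries and 70.7% and 73.5% in the knockdown, a difference that was not tested. Sequence shared with other annotated genes covers 66.0% of the 50-base words of Atp5g1 and 87.4% of those of Atp5g2, against 0% for Atp5g3, and its part in these shares was not tested. In sum the 15 genes of complex V held 969 and 1010 scaled units in the control libraries and 965 and 1032 in the knockdown, with a median log2 fold change of 0.03.

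Levels were also set beside the sequence that each mRNA shares with other genes. For 22 of the 40 mRNAs at least 1 word of 50 bases was found letter for letter in another annotated gene of the GENCODE transcripts, and for 18 none was. The 18 without a shared word had levels of 21.6 to 122 scaled units per kb of mRNA (median 45.8). The 16 with some shared words, up to 40%, had 0.496 to 158 scaled units per kb (median 42.7), near the 18 in the median. The 6 with over 40% of words shared (Uqcrb, Cox7c, Atp5g1, Atp5g2, Atp5h and Atp5l) had 3.91 to 37.1 scaled units per kb (median 14.9). Cycs, with 28.2% shared, had 0.496 scaled units per kb, the lowest of the 40, and Atp5b, with 0.857% shared, had 158, the highest. Across the 40 genes Spearman's rho between the shared percentage and the level per kb was -0.38 (-0.47 with words of 100 bases), over points that share the same 4 libraries. How reads with several matches were treated is not given in the sources used here, and the part of shared sequence in these levels was not tested. The standard error of the log2 fold change ran from 0.19 to 0.36 in the 6 genes, 0.11 to 0.44 in the 16 and 0.11 to 0.18 in the 18. Mean levels ran from 2.86 to 19.8, 1.55 to 303 and 22.4 to 291 scaled units in the same order. These standard errors rest largely on genes of similar level, so that level and shared sequence cannot be told apart in them.

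**Figure D3:**
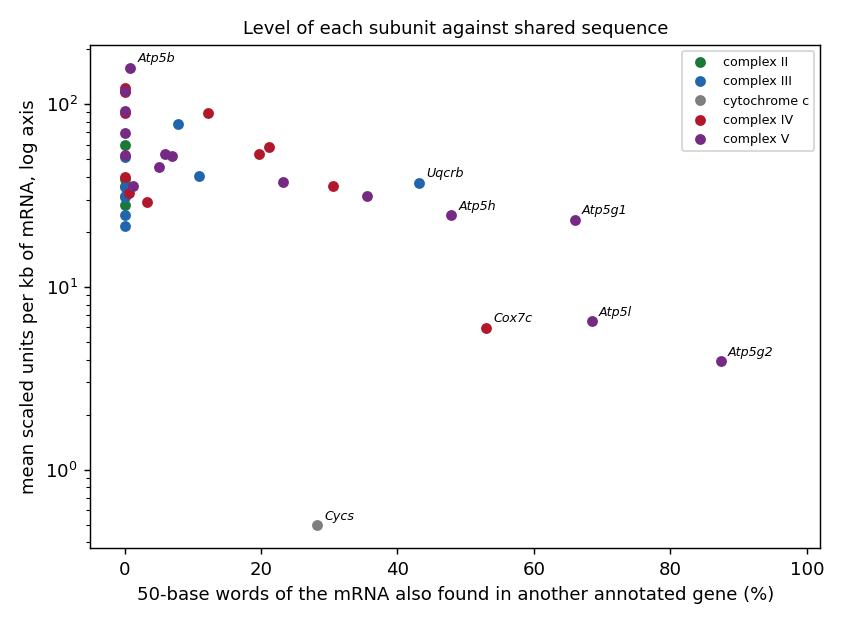
Mean level (scaled units per kb of mRNA, log axis) against the percentage of 50-base words of the mRNA that occur in another annotated gene, 1 point per subunit gene, coloured by complex. Cycs, Atp5g2, Cox7c and Atp5l lie lowest, between 0.496 and 6.504 scaled units per kb, whereas the 18 genes with no shared word lie at 21.6 or above.

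The rows of 6 of the 40 genes overlap another row of the table, whose reads may be counted with theirs, since neither the counted region nor a use of strand is given in the sources used here. The overlapping row held 29.6 times the level of the subunit for Atp5d (Bc1, whose row spans many genes), 0.712 times for Atp5j (Gabpa) and 0.346 times for Atp5f1 (Wdr77). For Uqcrc2, Atp5a1 and Atp5b it held 0.0182 times or less. Over the 34 genes without such a row the median log2 fold change was 0.02, as over all 40.

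Assembly and regulatory factors of complexes II to V had a median log2 fold change of -0.15 over 43 tested genes, 27 of them below 0. By limma, edgeR and DESeq2 0 of the 43 were called, with 4, 4 and 2 at an unadjusted p under 0.05. The shares of all genes at that threshold were 10.3%, 10.3% and 5.39%. Of the 43, 14 lay lower without overlap (32.6%, beside 20.0% of all genes) and 3 higher (6.98%, beside 20.4%). On the deposited scale 5 lay lower (11.6%, beside 4.49%) and 10 higher (23.3%, beside 34.9%), with a median of 0.02 and 24 of 43 above 0. The 4 genes with an unadjusted limma p under 0.05 were singled out after their values were seen. Tmem70, an assembly factor of the ATP synthase, stood at 18.8 and 15.1 (control) against 8.73 and 9.86 (knockdown) scaled units, both knockdown libraries below both controls (-0.80 ± 0.22 SE, adjusted p = 0.0717 by limma). Sco2, a copper chaperone of complex IV, stood at 11.5 and 11.6 (control) against 7.76 and 6.98 (knockdown) scaled units (-0.59 ± 0.23 SE, adjusted p = 0.334 by limma). Surf1, another assembly factor of complex IV, was higher in both knockdown libraries, at 13.4 and 15.9 (control) against 19.8 and 21.5 (knockdown) scaled units (0.47 ± 0.19 SE, adjusted p = 0.348 by limma). Pet100, also a biogenesis factor of complex IV, stood at 1.12 and 2.91 (control) against 6.31 and 4.09 (knockdown) scaled units (1.08 ± 0.37 SE, adjusted p = 0.212 by limma), and was called higher on the deposited scale (limma adjusted p = 0.0252).

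Subunits of complex I, the other entry point of electrons, had a median log2 fold change of -0.04 over 37 tested genes, 16 of them above 0. By limma, edgeR and DESeq2 0 of them were called, with 1, 1 and 0 at an unadjusted p under 0.05 (10.3%, 10.3% and 5.39% of all genes). Cytosolic ribosomal proteins had a median log2 fold change of 0.19 over 48 tested genes. Of these, 0 were called by limma, edgeR or DESeq2, with 8, 6 and 2 at an unadjusted p under 0.05 (the same shares of all genes apply). Without overlap 21 lay higher (43.8%, beside 20.4% of all genes) and 0 lower (beside 20.0%). On the deposited scale limma called Rpl13 higher (adjusted p = 0.0427). Subunit isoforms restricted to other tissues were mostly low. Cox4i2, Cox6b2, Cox7a1 and Cox8b had at most 0.782 deposited units in any library, and Cox7b2, Cox8c and Cyct were listed at 0 in all 4. Cox6a2, the heart and skeletal muscle form of Cox6a, was the 1 isoform of 8 that entered the test, at 10.3 and 9.25 deposited units in the control libraries and 4.96 and 12.7 in the knockdown, which overlap.

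**Figure D4:**
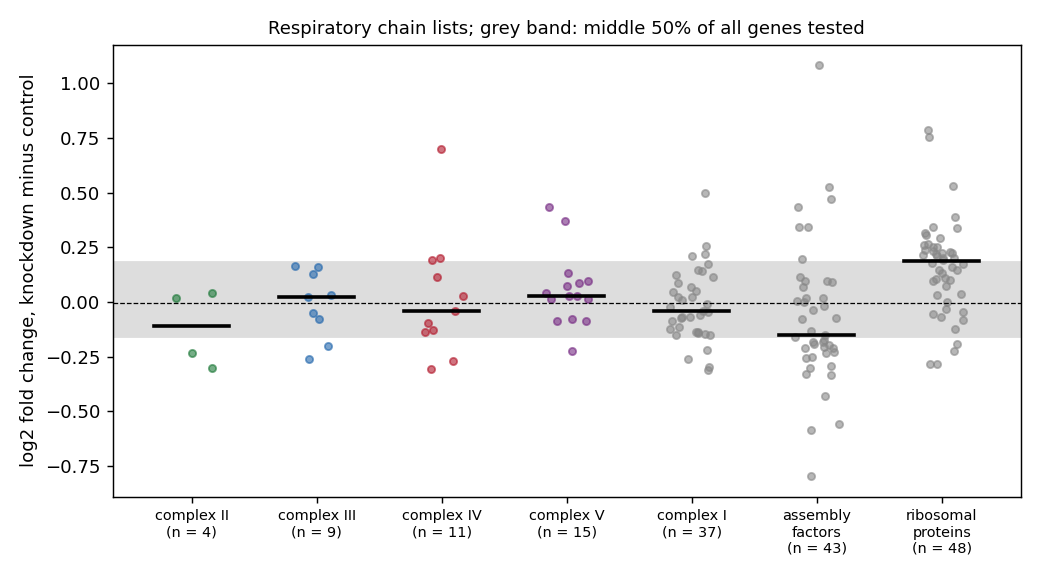
Log2 fold change (knockdown minus control) of each gene of complexes II, III, IV and V, of complex I, of the assembly factors and of the ribosomal proteins, 1 point per gene with the median as a bar. The grey band holds the middle 50% of all 13531 tested genes and the dashed line their median, and the medians of complexes II to V lie between -0.11 and 0.03.

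Markers of several cell types differed between the groups. For the counts below, limma called 1.12% of all tested genes higher and 0.155% lower. All 10 stellate cell and fibroblast markers lay above 0, with 6 called higher by limma (median log2 fold change 1.27), and summed to 99.1 and 130.4 scaled units in the control libraries and 296 and 239.5 in the knockdown. Endothelial markers had 3 of 10 called higher (median 0.62) and summed to 184 and 193 scaled units in the control libraries and 341 and 271 in the knockdown. Duct markers had 1 of 9 called higher (median 0.39) and summed to 846 and 1098 scaled units in the control libraries and 1583 and 1065 in the knockdown. All 10 beta cell markers lay below 0, with 1 called lower (median -0.30). They summed to 95744 and 92666 scaled units in the control libraries and 77763 and 85905 in the knockdown. These sums are mostly Ins1, Ins2 and Iapp, at 27962, 56310 and 9408 scaled units in control replicate 1. Each of the 10 was highest in control replicate 1 and lowest in knockdown replicate 3. Without overlap 8 lay lower (20.0% of all genes), and 1 on the deposited scale (4.49%). The deposited median of these markers was -0.11, beside 0.17 for all genes, with 1 of the 10 above 0. All 10 acinar markers also lay below 0 (median -0.41, and -0.23 on the deposited scale). By limma, edgeR and DESeq2 0 of the 10 were called. At an unadjusted p under 0.05 there were 1, 2 and 0 (10.3%, 10.3% and 5.39% of all genes). Acinar markers summed to 2741 and 6916 scaled units in the control libraries and 4736 and 2219 in the knockdown. Macrophage markers had 1 of 7 called higher, while 4 of the 7 lay below 0 (median -0.08). They summed to 55.99 and 60.8 scaled units in the control libraries and 68.03 and 55.6 in the knockdown. By limma without trend, with no filter on low values, and without control replicate 1, 0 genes were called in either direction, so that none of these marker calls held there. In bulk tissue, fewer cells of a type and less RNA per cell cannot be told apart, and the part of cell composition in the subunit levels was not tested.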

How the data were processed

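RNA-seq values of 24940 genes in 4 islet libraries were used. The deposited values are a signal, which the authors made with STAR 2.5.1b and HOMER 4.9 on mm10, with edgeR also named, per the submitters' processing notes. Those notes give no roles, and the counted region and strand are not given in the sources used here. Although named as FPKM, each value was a whole multiple, within 0.01 read, of 1 read per 10000000 reads of the library total (100.0% of values), so that the deposited signal is not set per length and whole reads were recovered. Ribosomal RNA takes a large part of those totals, so values were scaled by median ratios. limma 3.58.1 with trend (R 4.3.3) was fitted, two-sided, on log2(scaled units + 1) for the 13531 genes of 200 nt or more whose mean reached 1 deposited unit, with Benjamini-Hochberg adjustment at 0.05, and tested on simulated data. The limma variance prior had 21.4 degrees of freedom, so that its standard errors rest largely on genes of similar level. Alternatives were edgeR 4.0.16 and DESeq2 1.42.0 on recovered reads, other scalings, pseudocounts and filters, and limma without trend. Further alternatives left out each library in turn. The subunit genes that overlap another row were left out only from counts and medians of the main fit, which was not run again. The members, lists and motifs were chosen with earlier results of these data known. Named genes were Taz, all of complex II, core and c ring genes, Cox7a2l, the highest and lowest of complexes III to V, those with an unadjusted p under 0.05 and those whose groups did not overlap, and others are given for completeness. Protein sequences were not used here.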

Additional observations from a re-analysis of the deposited data

How the results depend on the processing

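No paired analysis was made, since the labels give no pairing of control and knockdown libraries. No subunit gene was called in any of the alternatives run, leave-outs included, and Taz was lower and not called in each. The number of all genes called higher, 151, was 337 on the deposited scale, 86 with quantile normalization, 0 with no filter, 88 at a mean of at least 10 units, 0 by limma without trend, 82 by DESeq2 and 0 to 341 without single libraries. The number called lower, 21, was 6 on the deposited scale, 7 with quantile normalization, 0 with no filter, 0 by limma without trend, 10 by DESeq2 and 0 to 68 without single libraries. The cause was not tested. Without control replicate 1, 0 genes were called in either direction, and without knockdown replicate 4, 341 higher and 68 lower. On the deposited scale 1 assembly factor and 1 ribosomal protein were called higher.

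Fold changes under an alternative are given relative to the median of all genes there. The median of the 40 subunits was 0.058 with quantile normalization, 0.048 at a mean of at least 10 units and -0.0095 to 0.038 without single libraries. Without single libraries the median ran from -0.23 to -0.015 for complex II, -0.055 to 0.082 for complex III, -0.078 to 0.057 for complex IV, -0.021 to 0.071 for complex V, -0.15 to -0.068 for assembly factors, -0.044 to -0.0072 for complex I and 0.090 to 0.26 for ribosomal proteins. It was 0.017 for complex IV with quantile normalization and -0.11 for assembly factors with a pseudocount of 5. Cycs turned negative with quantile normalization (-0.13), a pseudocount of 5 (-0.0001), edgeR (-0.059) and DESeq2 (-0.062). Atp5k turned negative by edgeR (-0.028) and DESeq2 (-0.027), and Cox4i1 positive with quantile normalization (0.017). Without single libraries 16 genes changed sign, with ranges of -0.18 to 0.22 for Sdhc, -0.068 to 0.11 for Uqcrc1, -0.047 to 0.12 for Uqcrfs1, -0.28 to 0.19 for Uqcrb, -0.16 to 0.016 for Uqcrq, -0.46 to 0.58 for Cycs, -0.14 to 0.057 for Cox4i1, -0.10 to 0.16 for Cox8a, -0.081 to 0.11 for Atp5a1, -0.021 to 0.085 for Atp5b, -0.12 to 0.18 for Atp5c1, -0.042 to 0.080 for Atp5e, -0.043 to 0.23 for Atp5h, -0.30 to 0.15 for Atp5j, -0.40 to 0.49 for Atp5k and -0.37 to 0.65 for Atp5l. Low read counts limit what can be said of Cycs, Cox7c, Atp5g2 and Atp5l, each with a mean under 10 scaled units. Why their counts were low was not tested.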
